A study of Mus musculus with 12 samples.

Results

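Expression of 8 receptors that steer B lymphoid cells was read across 4 groups of mouse progenitor B cells. The receptors were Cxcr5, Ccr7, Cxcr4, Ccr6, Ccr9, Ccr2, Ccr1 and S1pr1. They were taken by name, and every array probe annotated with one of the 8 symbols, current or older, was included. This gave 12 probes of the 45281 on the array, where 34885 probes carried a single gene symbol and stood for 19057 genes. Cxcr5 had 3 probes, Ccr6 and Ccr2 had 2 each, and the other receptors had 1 each.

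Of the 8, 7 are chemokine receptors, proteins with several membrane-spanning helices that couple to inhibitory G proteins and turn a gradient of a small secreted chemokine into directed movement. S1pr1 works in the same way but reads the lipid sphingosine 1-phosphate, which is abundant in blood and lymph and draws lymphocytes out of tissues. In B cell development Cxcr4 holds progenitors beside stromal cells that make Cxcl12, whereas Cxcr5 and Ccr7 are known mainly from later stages, when Cxcl13 draws B cells into lymphoid follicles and Ccl19 and Ccl21 draw them to the border with the T cell zone. Binding of a ligand also starts desensitization, in which receptor kinases and arrestins uncouple the receptor and RGS proteins shorten the G protein signal.

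Total RNA of progenitor B cells from C57BL/6 embryonic fetal liver, more than 95% pure per the labels, was hybridised to 12 arrays, 3 for each group. The loss experiment held Sox4fl/fl cells, which carry floxed alleles of the transcription factor gene Sox4, and Sox4fl/fl SE-Cre cells, which also carry the Cre recombinase named SE-Cre. In the gain experiment, Sox4fl/fl SE-Cre cells had been immortalized by p190 Bcr-Abl, a fusion kinase that transforms B cell progenitors, and carried the label HA or HA-Sox4. All 4 groups share the floxed alleles, both groups of the gain experiment share SE-Cre and the immortalization, and in the loss experiment effects of SE-Cre and of losing Sox4 cannot be told apart, since its only other group lacks SE-Cre. The promoter behind SE-Cre, the embryonic age, and whether a line is 1 clone are not given in the sources used here. The labels call the arrays of a group replicates without saying whether they came from separate embryos or cultures, so p-values reflect only how these arrays scatter, which can be technical.

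Values are log2 intensities after background correction and quantile normalization within each experiment, and a probe counts as detected on an array where the deposited detection p-value was under 0.05. A probe was tested where at least 3 of the 6 arrays of an experiment detected it, and a difference was called where the p-value of limma, adjusted over all tested probes, was under 0.05. Median intensity before normalization was 83.4 to 90.2 on the arrays of the loss experiment and 115 to 139 on those of the gain experiment, with 36.1% to 40% of probes detected on each. The Sox4 probe fell by 6.10 on the log2 scale (SE 0.15, adjusted p = 3.64e-10) in SE-Cre cells, and on gain it was higher with HA-Sox4 by at least 1.18-fold (adjusted p = 0.0326), as no HA array detected it. The place of that probe within Sox4 is not given in the sources used here. Of 7 B lineage markers on the array, Cd79b, a subunit of the B cell receptor, the surrogate light chain genes Vpreb1 and Igll1, the transcription factor gene Ebf1 and the adaptor gene Blnk were detected on every array, whereas Pax5 was detected on no Sox4fl/fl array and Cd22 on no array of the loss experiment or of HA.

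Only 3 receptors were expressed well enough to be tested in at least 1 experiment, and the remaining 5 were at or near background. Cxcr4 and all 3 Cxcr5 probes were detected on all 12 arrays. Ccr7 was detected on every HA-Sox4 array and on some arrays of the Sox4fl/fl and HA groups. Ccr6 was detected on single arrays, and Ccr9, Ccr2, Ccr1 and S1pr1 on none. In the loss experiment Cxcr5 rose and Cxcr4 did not pass the test, so 1 of the 2 testable receptors passed, where 16.4% of 8944 tested genes did (7.49% higher, 8.93% lower). In the gain experiment Ccr7 rose, Cxcr4 fell and Cxcr5 did not pass, so 2 of the 3 testable receptors passed, where 44.2% of 9249 tested genes did (21.3% higher, 22.8% lower). Ccr7 met the filter of 3 arrays only with the help of HA-Sox4, its higher group, as 2 HA arrays detected it.

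**Figure D1:**
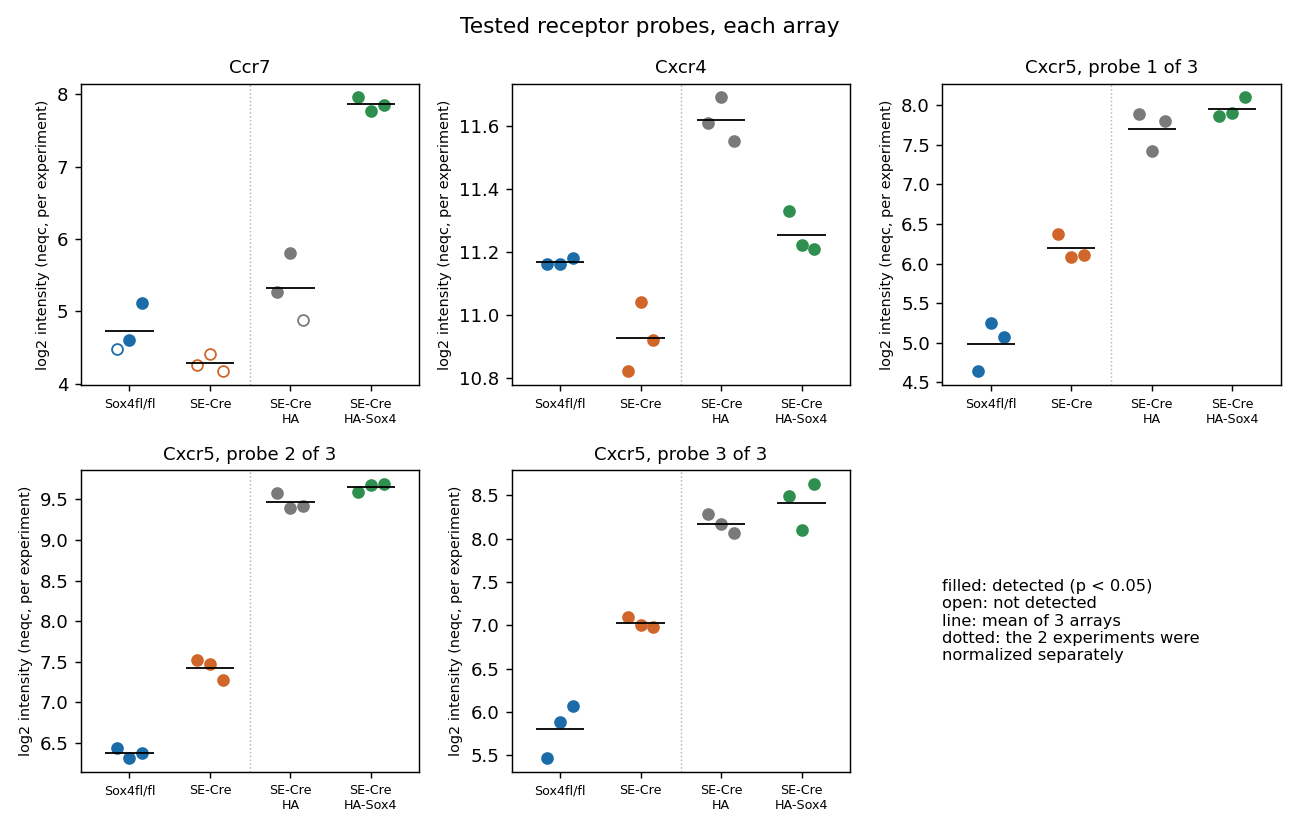
Log2 intensity of each tested receptor probe on each of the 12 arrays, with the 4 groups on the horizontal axis, filled points where the probe was detected, open points where it was not, and a line at the mean of 3 arrays. All 3 Cxcr5 probes step up from Sox4fl/fl to SE-Cre, Ccr7 stands between 7.77 and 7.96 on the HA-Sox4 arrays and at most at 5.80 elsewhere, and Cxcr4 is lower in the second group of each experiment. The dotted line separates experiments that were normalized apart, so heights are comparable only within each side.

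Cxcr5, the receptor of Cxcl13, lies at chr9:44511787-44526444 of GRCm38.p6. Its brightest probe (ILMN_2990494) read 6.44, 6.31 and 6.37 on the Sox4fl/fl arrays and 7.52, 7.47 and 7.27 on the SE-Cre arrays. Every SE-Cre value lay above every Sox4fl/fl value, by more than the spread within either group. Groups that do not overlap, in either direction, were found at 32.4% of the probes tested on loss. The group means were 6.37 ± 0.06 and 7.42 ± 0.14 (SD, n = 3 arrays each), a rise of 1.05 on the log2 scale or 2.07-fold (SE 0.14, 95% interval 0.74 to 1.35, adjusted p = 0.000259). In bulk RNA of this kind, more cells with the receptor and more RNA per cell cannot be told apart.

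The other 2 Cxcr5 probes gave the same picture. Probe ILMN_1219316 read 4.64, 5.25 and 5.07 in Sox4fl/fl against 6.38, 6.09 and 6.11 in SE-Cre cells, a difference of 1.21 (SE 0.18, adjusted p = 0.000495). Probe ILMN_2990502 read 5.47, 5.89 and 6.07 against 7.10, 7.01 and 6.98, a difference of 1.22 (SE 0.17, adjusted p = 0.000311). Probes of 1 gene share the RNA of the same arrays and are not replicates of each other. Of the 4 receptor probes tested on loss, 3 passed, all of them of Cxcr5, where 15.3% of 16454 tested probes passed. Both the correction of background and the offset of 16 bear on such dim probes: without background correction the rise at the brightest probe was 0.67 (adjusted p = 0.000267).

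In the immortalized cells Cxcr5 was bright in both groups and its difference did not pass the test. The brightest probe read 9.58, 9.39 and 9.42 on the HA arrays and 9.59, 9.68 and 9.69 on the HA-Sox4 arrays. The HA-Sox4 values lay just above the HA values, and 53.6% of the probes tested on gain had groups that do not overlap. The difference of 0.19 (SE 0.09, 95% interval -0.02 to 0.39, adjusted p = 0.129) reached at most 0.39 within its interval. At the other 2 probes the groups overlapped, with 7.89, 7.42 and 7.80 against 7.86, 7.90 and 8.10 at ILMN_1219316 and with 8.28, 8.17 and 8.07 against 8.49, 8.10 and 8.63 at ILMN_2990502. Their differences were 0.25 (95% interval -0.08 to 0.59, adjusted p = 0.197) and 0.23 (95% interval -0.11 to 0.58, adjusted p = 0.248).

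Ccr7, the receptor of Ccl19 and Ccl21 and the main guide of lymphocytes into the T cell zone, lies at chr11:99144199-99155077. On the HA arrays its probe read 5.27, 5.80 and 4.88, with the third array below detection, and on the HA-Sox4 arrays it read 7.96, 7.77 and 7.86, all detected. The lowest HA-Sox4 value stood well above the highest HA value, and the HA values spread more widely than the HA-Sox4 values. Groups did not overlap at 53.6% of the probes tested on gain. The means of 5.32 ± 0.46 and 7.86 ± 0.10 differed by 2.55 on the log2 scale or 5.84-fold (SE 0.22, 95% interval 2.03 to 3.06, adjusted p = 0.000136). Before normalization the same arrays read 151, 138 and 126 in HA and 398, 319 and 341 in HA-Sox4 cells, in linear intensity units that still contain the background. Without background correction the log2 difference was accordingly smaller, 1.23 (adjusted p = 1.33e-09). With no filter on detection Ccr7 passed the limma test as well (adjusted p = 0.000158).

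In the loss experiment Ccr7 was too rarely detected to be tested. The Sox4fl/fl arrays read 4.48, 4.61 and 5.11, of which the first was not detected, and the SE-Cre arrays read 4.26, 4.41 and 4.17, none of them detected. All 3 SE-Cre values lay below all 3 Sox4fl/fl values, and groups that do not overlap, in either direction, were found at 32.4% of tested probes. Set against the dimmest signal that still counted as detected on those arrays, which lay between 4.55 and 4.60, the SE-Cre level of Ccr7 was lower by at least 1.10-fold, a bound that says little about the size. With no filter on detection the fitted difference was -0.45 (SE 0.17, adjusted p = 0.268).

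Cxcr4, the receptor of Cxcl12, lies at chr1:128588199-128592299 and was detected on all 12 arrays. On loss its probe read 11.16, 11.16 and 11.18 in Sox4fl/fl and 10.82, 11.04 and 10.92 in SE-Cre cells. The SE-Cre values were all lower, and the Sox4fl/fl values were nearly identical (SD 0.01), but the difference of -0.24 (SE 0.14, 95% interval -0.54 to 0.06, adjusted p = 0.285) did not pass the test, which takes its spread in part from all probes. On gain the probe read 11.61, 11.69 and 11.55 in HA and 11.33, 11.22 and 11.21 in HA-Sox4 cells. The groups did not overlap, and the fall by 0.36 on the log2 scale, 1.29-fold (SE 0.08, 95% interval -0.56 to -0.17, adjusted p = 0.012), passed. Non-overlapping groups were found at 32.4% of the probes tested on loss and 53.6% of those tested on gain, where 41.2% of 17504 passed the test. In simulated data with 200 changed probes the test recovered 36.4% of probes changed 1.5-fold on gain and 11.3% on loss. Both Cxcr4 differences were smaller than 1.5-fold. In the data 7218 probes passed on gain and 2516 on loss, so these rates need not hold for the real tests.

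**Figure D2:**
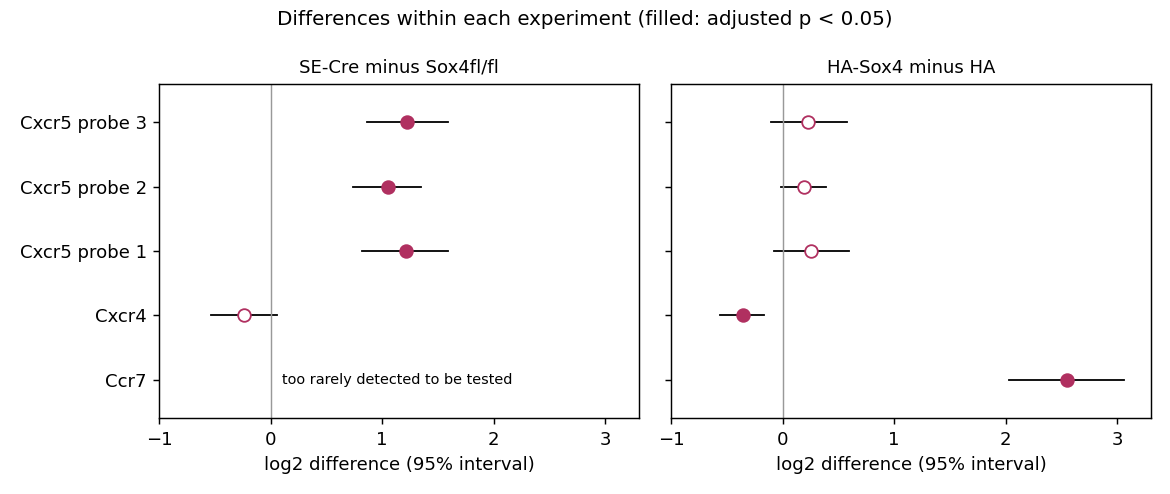
Log2 difference between the 2 groups of each experiment for the tested receptor probes, with bars for the 95% interval and filled points where the adjusted p was under 0.05. Cxcr5 stands near 1.05 to 1.22 on loss and near 0.19 to 0.25 on gain, Cxcr4 lies below 0 in both, and Ccr7 reaches 2.55 on gain.

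The promoter of Cxcr4 is shown because every array detected that receptor, and that of Ccr9 as an example of the 4 receptors that no array detected. Both are the 250 bases before the annotated start of the gene, from RefSeq on GRCm38.p6, written 5′ to 3′ on the strand of the gene. The Cxcr4 window is chr1:128592300-128592549 on the minus strand and the Ccr9 window is chr9:123766961-123767210 on the plus strand. Capitals mark matches, on either strand, to GGGCGG (the GC box), TATAAA (the TATA box), GTAAACA (the FOXO core), and ACAAAG or ACAATG (the core that Sox proteins bind).
Cxcr4: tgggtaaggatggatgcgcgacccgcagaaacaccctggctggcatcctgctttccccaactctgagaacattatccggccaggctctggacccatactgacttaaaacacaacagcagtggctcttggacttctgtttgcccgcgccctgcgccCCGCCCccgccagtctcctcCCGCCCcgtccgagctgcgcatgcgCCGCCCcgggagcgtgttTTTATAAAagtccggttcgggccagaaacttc
Ccr9: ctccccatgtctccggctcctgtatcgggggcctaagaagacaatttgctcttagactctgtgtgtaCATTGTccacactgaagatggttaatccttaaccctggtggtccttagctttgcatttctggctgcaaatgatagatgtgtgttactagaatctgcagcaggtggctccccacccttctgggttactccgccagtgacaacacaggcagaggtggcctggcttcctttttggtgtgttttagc
The Cxcr4 window was 61.2% G and C and held 3 GC boxes, which end 90, 70 and 45 bases before the start. It also held overlapping matches to the TATA box on both strands between 32 and 25 bases before the start. Of 32851 promoter windows of the same length, 32.7% held the GC box and 12.4% the TATA box. The Ccr9 window was 50.4% G and C and held 1 match to the Sox core, from 183 to 178 bases before the start, which 25.2% of all windows hold. Ccr2 was the only other receptor of the 5 with a promoter in the table whose window held a Sox core match, and none of the 5 held the FOXO core, found in 3.17% of all windows. The Ccr1 window held no match to any motif searched, and no array detected Ccr1 either, so the printed pair does not stand for all receptors. The Ccr2 window (chr9:124101933-124102182) and a second Ccr6 window (chr17:8242276-8242525) lie inside the gene coordinates given below, not before them. These matches are letters in a window, and binding was not measured here.

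The 5 remaining receptors gave no testable signal. Ccr6, the receptor of Ccl20, lies at chr17:8236041-8258519, and its probe ILMN_2639012 read 4.23, 4.73 and 4.25 in Sox4fl/fl, 4.41, 4.30 and 4.35 in SE-Cre, 4.96, 4.69 and 4.69 in HA and 4.51, 5.20 and 4.95 in HA-Sox4 cells. The second Sox4fl/fl and the second HA-Sox4 array were the only ones to detect it. The other Ccr6 probe, ILMN_2888448, read between 4.17 and 4.37 on loss and between 4.62 and 5.29 on gain and was detected on 1 array, the third of HA-Sox4. No fold can be given for Ccr6, since the detected values did not exceed the lowest detectable signal on average over a group.

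Ccr9, which binds Ccl25 and is known for homing to thymus and small intestine, lies at chr9:123767211-123783457 and was detected on no array. It read 4.44, 4.25 and 4.22 in Sox4fl/fl, 4.36, 4.37 and 4.41 in SE-Cre, 4.62, 4.53 and 4.48 in HA and 4.43, 4.36 and 4.31 in HA-Sox4 cells. The HA and HA-Sox4 values did not overlap, as was found at 53.6% of the probes tested on gain. Both lay below the lowest detected signal of the gain arrays, 5.08 to 5.25, so the difference of -0.18 carries no measured level. S1pr1, at chr3:115710433-115715055, read between 4.20 and 4.30 on loss and between 4.41 and 4.75 on gain, with group means that differed by at most 0.03. Ccr1, a receptor of inflammatory chemokines such as Ccl3 (chr9:123962126-123968692), read between 4.15 and 4.59 over all arrays. Ccr2, the receptor of Ccl2 that is best known from monocytes (chr9:124101918-124109140), read between 4.18 and 4.81 at its 2 probes. Over all probes of the 8 receptors that an experiment detected on none of its arrays, group means differed by at most 0.18.

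**Figure D3:**
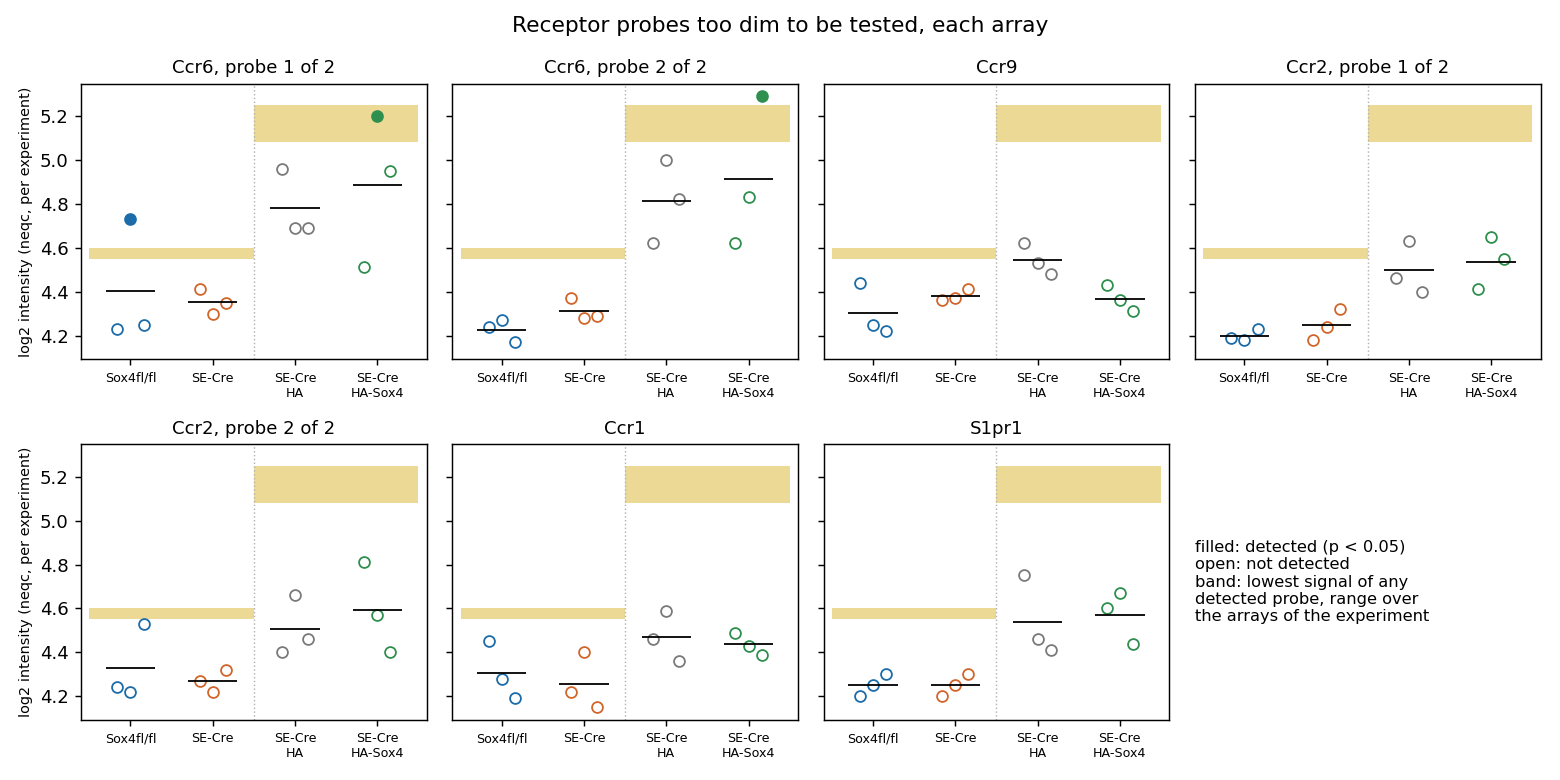
Log2 intensity of the 7 receptor probes too dim to be tested, on each array and by group, with filled points where detected and a line at each group mean. The band is the lowest signal of any detected probe, 4.55 to 4.60 on the loss arrays and 5.08 to 5.25 on the gain arrays, and only detected readings of Ccr6 reach it.

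Levels over all 4 groups were compared after joint normalization of the 12 arrays, as a description, because experiment, array set and immortalization cannot be told apart. On this scale the brightest Cxcr5 probe was lowest in Sox4fl/fl (7.10 ± 0.06), then SE-Cre (8.14 ± 0.13), HA (8.99 ± 0.10) and HA-Sox4 (9.17 ± 0.05). HA and HA-Sox4 are neighbours that did not differ by the test within their experiment. At probe ILMN_2990502 the order of SE-Cre (7.76 ± 0.06) and HA (7.69 ± 0.11) was turned and their values overlapped, and with scaling to a common median HA was again the higher (7.32 and 7.78), so the step between these groups depends on probe and scaling. Cxcr4 ran the opposite way, from 11.93 ± 0.01 in Sox4fl/fl through 11.69 ± 0.11 and 11.12 ± 0.07 to 10.76 ± 0.07 in HA-Sox4 cells, with Sox4fl/fl and SE-Cre as neighbours whose difference did not pass. HA was below SE-Cre also without background correction (11.04 and 11.60) and with scaling to a common median (11.16 and 11.42). Ccr7 was highest in HA-Sox4 (7.38 ± 0.09), while Sox4fl/fl (5.16 ± 0.49) and HA (5.02 ± 0.38) overlapped and SE-Cre (4.45 ± 0.18) was below detection.

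The difference that goes with Sox4 was then compared between experiments, as HA-Sox4 minus HA against Sox4fl/fl minus SE-Cre in a single fit. All 3 testable receptors passed, where 19.9% of 10259 genes did. Cxcr5 differed by 1.23 (SE 0.15, 95% interval 0.90 to 1.56, adjusted p = 8.48e-05) at its brightest probe, with differences of 1.63 and 1.49 at the other probes. In the primary cells it was higher in SE-Cre, and in the immortalized cells its difference did not pass the test. Cxcr4 differed by -0.59 (SE 0.14, 95% interval -0.91 to -0.28, adjusted p = 0.0118), being lower with HA-Sox4 in the immortalized cells while the primary Sox4fl/fl cells read slightly higher than SE-Cre cells. Ccr7 differed by 1.66 (SE 0.32, 95% interval 0.96 to 2.36, adjusted p = 0.00296), and since no SE-Cre array detected it, the loss side of that value rests on readings below detection. With the authors' processed values or without background correction the Ccr7 value was 1.04 or 0.78, still past the threshold (adjusted p = 2.58e-06 and 0.000134).

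The genes most like each tested receptor over the 12 arrays were ranked by the root mean square difference of centred log2 values among 3384 genes whose group means spanned at least 1 log2 unit. For Ccr7, whose group means spanned 2.93, these were Plxnc1, a semaphorin receptor (0.26), Dennd3 (0.27) and Fcrl1, a B cell surface protein related to Fc receptors (0.28). Plxnc1 averaged 5.52, 4.69, 5.19 and 7.56 in the 4 groups in the order above, so it too was high in HA-Sox4 cells. For Cxcr4, with a span of 1.17, they were Tbl1xr1, a corepressor subunit (0.11), Fam53b (0.12) and Cd72, a B cell surface lectin (0.12). Cd72 averaged 11.61, 11.42, 10.81 and 10.38 and fell in the same order as Cxcr4. For Cxcr5, with a span of 2.07, they were Tnfrsf26 (0.18), the centromere protein gene Cenpb (0.19) and Uty, a gene of the Y chromosome (0.20). Uty averaged 4.56, 5.24, 6.22 and 6.29 in the 4 groups. Whether the groups differ in the sex of the cells was not tested. The ranking uses all 12 arrays, so differences between the experiments count in it as well as those within them.

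**Figure D4:**
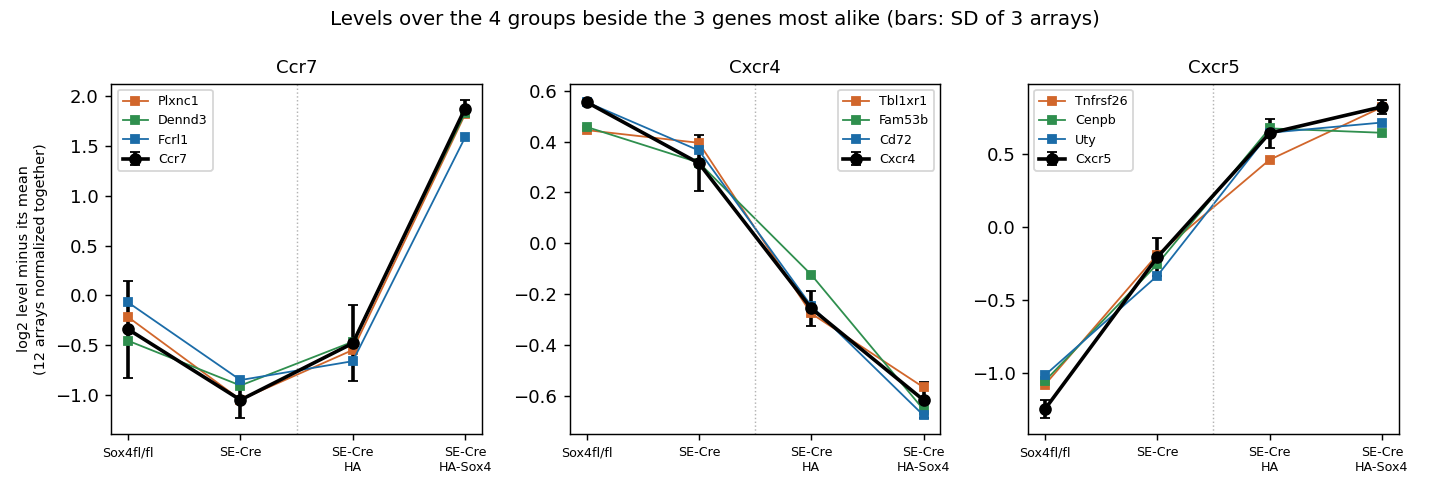
Group means of Ccr7, Cxcr4 and Cxcr5, each minus its mean over the 12 jointly normalized arrays (log2), with bars for the SD of the receptor over 3 arrays and coloured lines for the 3 genes most like it. Ccr7 and its neighbours peak in HA-Sox4, Cxcr4 and its neighbours decline from Sox4fl/fl to HA-Sox4, and Cxcr5 and its neighbours climb; the dotted line separates the experiments.

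Among 17 ligands of these receptors, 16 were on the array and 4 were tested in each experiment. Of all tested genes 16.4% passed on loss and 44.2% on gain, the shares to set beside the counts here and in the lists that follow. On loss 1 rose and none fell, with a median difference of 0.30 against 0.023 for all tested genes. That gene was Ccl9, a ligand of Ccr1, which rose from 7.97 ± 0.11 to 9.53 ± 0.05, a difference of 1.57 (SE 0.14, adjusted p = 6.34e-06), while Ccr1 itself was undetected. Ccl25 was not counted on loss, as its brightest probe did not pass (0.52 higher, adjusted p = 0.0557), though its other tested probe was called higher. On gain 1 ligand rose and 2 fell, with a median of -0.28 against -0.046. Ccl9 and Ccl4 met the detection filter on gain through 1 group alone, as did every tested gene given as "at least" a fold. For such genes the direction follows from the detection, and they count among the rises and falls. Ccl9 and Ccl4 also passed on gain with no filter on detection. Ccl9 was at least 5.31-fold lower in HA-Sox4 cells (adjusted p = 1.22e-06), and no array of that group detected it. Ccl4, an inflammatory chemokine, was at least 2.62-fold higher (adjusted p = 4.01e-06), with detection on all HA-Sox4 and no HA arrays. Ccl25, the ligand of Ccr9, fell by 0.68 (SE 0.11, adjusted p = 0.00239) at its brightest probe, and its other 2 tested probes did not pass. Cxcl12, the ligand of Cxcr4, read 0.07 higher on loss and 0.12 higher on gain and passed in neither, and Cxcl13, the ligand of Cxcr5, was detected on no array.

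Of 18 related receptors 17 were on the array, and in each experiment 13 of them were detected on none of its arrays. On loss 2 were tested and 1 fell, Ccrl2, an atypical receptor that binds chemerin, by 0.61 (SE 0.15, adjusted p = 0.0159). Ccrl2 no longer passed when background was left in (adjusted p = 0.0898), without Sox4fl/fl replicate 2 (0.0592) and without replicate 3 (0.0713). On gain 4 were tested, 1 rose and 2 fell. Gpr183, a receptor for oxysterols that positions B cells within lymphoid organs, rose from a mean of 4.44 with no HA array detected to 8.62 ± 0.05, at least 10.5-fold (adjusted p = 1.45e-07). Like Ccr7, it was detected on all HA-Sox4 arrays and was far above its HA level. Ccrl2 fell by 1.10 (SE 0.11, adjusted p = 0.000265) and Cx3cr1, the receptor of fractalkine, fell by 0.96 (SE 0.10, adjusted p = 0.000404). Only 1 HA-Sox4 array detected Cx3cr1.

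Around S1pr1, all 15 listed genes of the sphingosine 1-phosphate pathway were on the array and 10 were tested in each experiment. On loss 1 rose and 2 fell, with a median of 0. S1pr2, which restrains migration, rose by 1.07 (SE 0.20, adjusted p = 0.00328). Sgpl1, the lyase that destroys the lipid, fell by 1.45 (SE 0.20, adjusted p = 0.000318), and the transcription factor gene Foxo1 fell by 0.95 (SE 0.17, adjusted p = 0.00218), each at both tested probes. Only 1 SE-Cre array detected Sgpl1 at its brightest probe, and without background correction the difference was -0.57 (adjusted p = 0.00261). On gain 4 rose and 3 fell, again with a median of 0. Sgpl1 rose by 1.10 (SE 0.09, adjusted p = 9.52e-05), and Foxo1 rose by 1.07 (SE 0.12, adjusted p = 0.000439) at 1 of its 2 tested probes. Both genes were thus lower in SE-Cre cells and higher in HA-Sox4 cells. Plpp3, a phosphatase of lipid phosphates, was at least 5.05-fold higher (adjusted p = 3.67e-06) and Klf2, a transcription factor known to drive S1pr1 in mouse T cells, at least 3.11-fold higher (adjusted p = 1.36e-05), while S1pr1 stayed undetected on these arrays.

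Of 15 genes for heterotrimeric G proteins and their effectors, 12 were tested in each experiment. On loss 1 rose and 1 fell, with a median of 0.12. Gna12 rose by 0.78 (SE 0.16, adjusted p = 0.00583), and Gng2, a gamma subunit, was at least 1.44-fold lower (adjusted p = 0.00294). Pik3cd was not counted on loss, as its brightest probe did not pass (0.29, adjusted p = 0.301), though 1 of its 2 tested probes was called higher. On gain 3 rose and 2 fell, with a median of 0.08, where 44.2% of all tested genes passed. Gng2 rose by 1.43 (SE 0.10, adjusted p = 4.14e-05) at both tested probes, so it moved opposite ways in the 2 experiments. Gnai1, an inhibitory alpha subunit of the class through which chemokine receptors signal, was at least 1.59-fold higher (adjusted p = 0.00152). Pik3cd, a lipid kinase subunit, rose by 0.37 (adjusted p = 0.0192) at 1 of 2 probes, a call lost with scaling to a common median (0.25, adjusted p = 0.167). The call was also lost with the 12 arrays fitted together (0.0735) and without HA replicates 1 (0.0566) and 2 (0.0588) or HA-Sox4 replicates 1 (0.059) and 2 (0.0595). Ptk2b, a kinase activated downstream of chemokine receptors, fell by 0.41 (adjusted p = 0.0286). Ptk2b did not pass with no detection filter (0.0571), with the 12 arrays fitted together (0.0549), and without HA replicate 2 (0.0522) or HA-Sox4 replicates 1 (0.0681), 2 (0.0569) and 3 (0.0828). Gnai2, the main inhibitory alpha subunit of lymphocytes, differed by 0.03 on loss and 0.08 on gain and passed in neither.

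Of 16 genes that desensitize receptors, 15 were on the array. On loss 10 were tested and 1 fell, Rgs19, by 0.57 (SE 0.18, adjusted p = 0.0485), with a median of -0.29 for the tested genes. That call was lost under 9 of 16 alternatives, where its adjusted p reached 0.179 without Sox4fl/fl replicate 1, 0.139 without replicate 2, and 0.159 and 0.107 without SE-Cre replicates 2 and 3. On gain 12 were tested, 4 rose and 4 fell, with a median of -0.23. Rgs18 was at least 4.78-fold lower in HA-Sox4 cells (adjusted p = 1.28e-06), and Rgs14 rose by 1.59 (SE 0.18, adjusted p = 0.000545). Both encode proteins that speed the switching-off of G proteins, and only 1 HA array detected Rgs14. Arrb2, an arrestin, fell by 0.63 (SE 0.08, adjusted p = 0.0012), and Grk5, a receptor kinase, rose by 0.69 (SE 0.16, adjusted p = 0.014).

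Of 18 effectors of migration, all on the array, 15 were tested on loss and 16 on gain. On loss 1 fell and none rose, with a median of 0.07. That gene was Dock8, an activator of the GTPase Cdc42, which fell by 0.98 (SE 0.23, adjusted p = 0.0115). It did not pass when undetected probes were tested too (0.107) or when SE-Cre replicate 2 was left out (0.0505). On gain 2 rose and 5 fell, with a median of -0.21, where 44.2% of all tested genes passed. Coro1a was not counted, as its brightest probe did not pass (-0.16, adjusted p = 0.215), though 3 of its 4 tested probes were called lower. Elmo1 and Arhgdib were likewise not counted, with 1 of 5 and 1 of 2 tested probes called lower. Rassf5, a partner of Rap GTPases in integrin activation, fell by 0.79 (SE 0.08, adjusted p = 0.00027), and Vav1, an activator of Rac, fell by 0.36 (SE 0.07, adjusted p = 0.00736). Dock8 fell by 0.42 (SE 0.08, adjusted p = 0.00496) at 1 of 2 probes and did not pass with the 12 arrays fitted together (0.139). Rhoh, a GTPase of blood cells, was at least 1.20-fold higher (adjusted p = 0.00282).

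**Figure D5:**
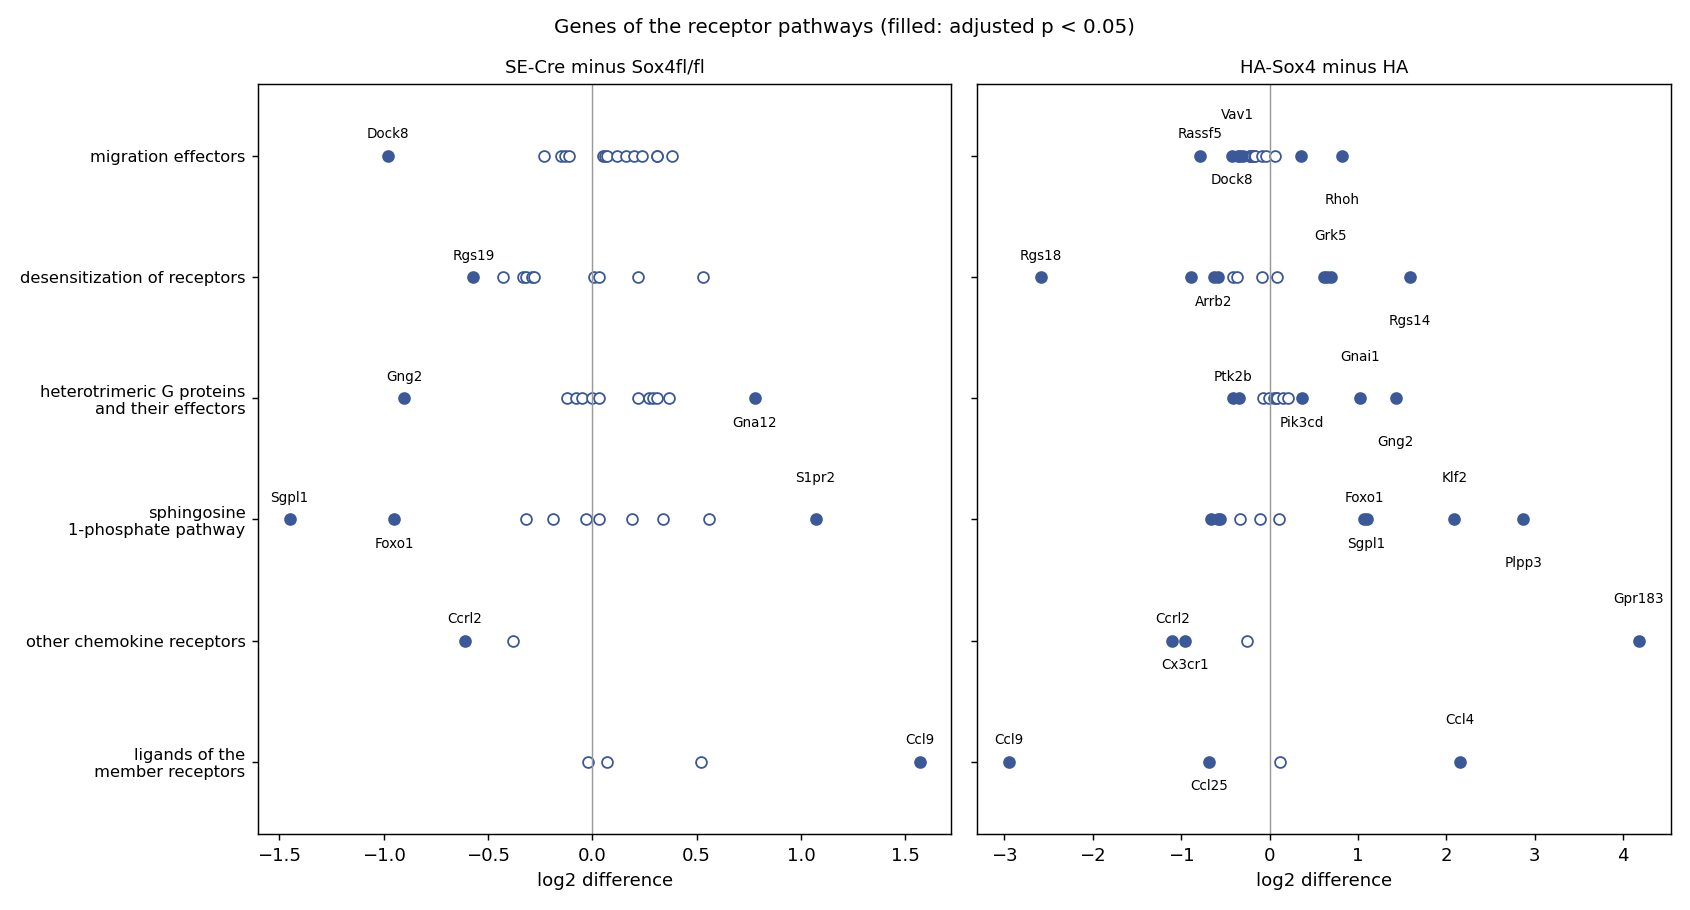
Log2 difference of every tested gene in 6 groups around the receptors, for SE-Cre minus Sox4fl/fl and for HA-Sox4 minus HA, with filled points where the adjusted p was under 0.05 and labels on the genes named in the text. On gain Gpr183 stands farthest to the right and Ccl9 farthest to the left; for genes that 1 group did not detect, the point is the fitted value and the text gives the bound.

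Markers of other cell types were read on the same arrays. Each summed level below is the sum of linear normalized intensities over the tested markers of a list. Of 9 myeloid markers on the array, 2 were tested on loss and 1 rose, Lyz2 by 1.97, with 5 (Itgam, Elane, Adgre1, Cd14 and Fcgr1) detected on no array and a summed level of 79.1 to 98.6 in Sox4fl/fl and 259 to 290 in SE-Cre cells. On gain Lyz2 alone was tested and fell by 2.52, from 402 to 474 down to 56.8 to 86.8, with Itgam, Csf1r, Mpo, Elane, Adgre1, Cd14 and Fcgr1 on no array. Lyz2 thus moved in the same direction as Ccl9. Cxcr5 also rose on loss, but on gain it read 0.19 higher and did not pass the test. Of 8 T and NK cell markers, 2 were tested on loss and Klrd1 fell by 1.74, with summed levels of 204 to 235 and 170 to 228 and with Cd3e, Cd3g, Cd4, Ncr1 and Nkg7 on no array. On gain Nkg7 alone was tested and rose by 2.17, from 40.9 to 56.1 up to 216 to 244, with Cd3e, Cd3g, Cd8a, Thy1, Ncr1 and Klrd1 on no array.

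Of 7 dendritic cell markers, 3 were tested in each experiment. On loss Ly6d fell by 2.40 and Bst2 by 0.71, with summed levels of 1020 to 1200 and 242 to 262 and with Itgax and Zbtb46 on no array. Ly6d averaged 10.02 in Sox4fl/fl and 7.62 in SE-Cre cells, against 5.19 and 5.02 for Siglech and 5.22 and 4.52 for Bst2. The summed level on loss thus mostly followed Ly6d, and no share of dendritic cells can be read from it. On gain Ly6d was at least 10.5-fold higher while Siglech fell by 0.55 and Bst2 by 0.92, with summed levels of 463 to 572 and 647 to 773 and with Itgax, Xcr1 and Zbtb46 on no array. Of 6 mast cell, basophil and megakaryocyte markers 1 was tested on loss, Kit, which B cell progenitors also express. Kit rose by 0.48, with levels of 886 to 1050 and 1200 to 1500 and with Mcpt8, Gata2 and Pf4 on no array. On gain 2 were tested, Kit rose by 2.30 and Mcpt8 was at least 4.07-fold lower, with summed levels of 175 to 235 and 355 to 391 and with Cpa3, Gata2, Pf4 and Itga2b on no array. Of 3 erythroid markers Car2 rose by 1.01 on loss, from 521 to 635 up to 1000 to 1320, and fell by 1.75 on gain, where 2 were tested with summed levels of 3710 to 4250 and 1090 to 1420, and Hba-a1 was on no array. Of 6 hepatocyte and stromal markers Pecam1 alone was tested, and it fell by 2.80 on loss, from 296 to 392 down to 45.9 to 58, and rose by 0.43 on gain, from 374 to 403 up to 480 to 560. Alb, Afp, Ttr and Pdgfrb were on no array of the loss experiment, and Alb, Afp, Ttr and Col1a1 on none of the gain experiment. These levels are thus those of Pecam1 alone, and no share of hepatocytes or stroma can be read from them. In the B lineage list Pax5 rose on loss, by at least 1.63-fold, while Ebf1 fell by 0.49 and Blnk by 0.70, with summed levels of 27200 to 28500 and 25300 to 28900. On gain Blnk rose by 1.29 and Cd22 by at least 8.48-fold, with summed levels of 52700 to 59200 and 55400 to 57100. The part of these markers in the receptor differences was not tested.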

How the data were processed

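The authors deposited non-normalized Illumina bead array intensities for each probe and array, linear and with background still present, and beside each a detection p-value, per the file headers. A second deposited table holds processed intensities, of which 99.97% (loss) and 99.96% (gain) lay within 0.01 of the values that quantile normalization of the experiment gives. R 3.0.1 is named in the submitters' processing notes without a role, and the scanner software is not given in the sources used here.

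From the non-normalized intensities, neqc of limma 3.58.1 (R 4.3.3, offset 16, background from the detection p-values) gave log2 values for each experiment, and lmFit and eBayes compared the groups with Benjamini-Hochberg adjustment over all probes detected (p under 0.05) on at least 3 arrays. The difference between experiments came from a joint normalization and fit of all 12 arrays. Where no array of a group detected a probe, a fold is "at least": readings of that group under the dimmest detected signal of their array were set to that signal. A gene outside the 8 receptors stands by its brightest tested probe. Named were all receptors, Sox4, up to 4 genes of each pathway list and experiment with the smallest p among those past the threshold, and the 3 genes most like each receptor; marker genes are named with their lists. The members and the lists were chosen with earlier results of these data known. Precision is limited by having 3 arrays in a group, and no slide or scan was given to test as a batch. Tested on simulated data with 200 changed probes, the fit recovered 68.6% of 2-fold changes on loss, 56.9% on gain and 44.9% for the difference between experiments. Far more probes than 200 passed in the data, so these rates need not hold there. Alternatives were no background correction, the authors' values, other detection filters, a common median, joint normalization or fitting, trend and robust eBayes, weights for arrays, a replicate block, and each array left out. Promoter sequences and coordinates are RefSeq's on GRCm38.p6, found for 5 of the 8 receptors.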

Additional observations from a re-analysis of the deposited data

Results flagged for a closer look

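The difference that goes with Sox4, HA-Sox4 minus HA in the immortalized cells against Sox4fl/fl minus SE-Cre in the primary cells, was itself tested and differed between the experiments for each of the 3 testable receptors. For Ccr7 it was 1.66 larger on the log2 scale in the immortalized cells (adjusted p = 0.00296), with no SE-Cre array detecting the gene. For Cxcr4 it was -0.59 (adjusted p = 0.0118), with the reading lower in all 3 HA-Sox4 arrays than in any HA array and higher in all 3 Sox4fl/fl arrays than in any SE-Cre array. For Cxcr5 it was 1.23 (adjusted p = 8.48e-05), with Cxcr5 lower in all 3 Sox4fl/fl arrays than in any SE-Cre array. Of all genes tested in this way, 19.9% passed. Groups that do not overlap were found at 32.4% of the probes tested on loss and 53.6% of those tested on gain. Within the loss experiment the Cxcr4 difference did not pass the limma test (adjusted p = 0.285). The experiments also differ in array set and in immortalization, which cannot be told apart.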

How the results depend on the processing

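Every test of a receptor kept its direction and its side of the threshold under every alternative run. The rise of Ccr7 on gain ranged from 1.23 to 2.81, the fall of Cxcr4 on gain from -0.51 to -0.33, and the rise of Cxcr5 on loss from 0.67 to 1.22; the Cxcr4 difference on loss ranged from -0.30 to -0.18 and that of Cxcr5 on gain from 0.15 to 0.25. Differences between experiments ranged from 0.78 to 2.09 (Ccr7), -0.77 to -0.54 (Cxcr4) and 0.83 to 1.63 (Cxcr5). Without background correction, and with the authors' values, 3 of 6 receptor values past the threshold and 22 of the 31 named pathway values were smaller by over 1.5 times, since background left in the intensities compresses differences of dim probes. No other alternative moved any of these values that far where it gave a value. With detection on every array required, 19 of the 31 and 4 of the 6 did, and genes that only 1 group detected gave none without an array of that group. Of the 31 named pathway calls, 6 were lost under at least 1 alternative, as given with each gene; other pathway calls were not run under the alternatives. The count of probes passing on loss, 2516, was 3978 when all 12 arrays were normalized and fitted together, 1536 to 1996 without 1 array, and lowest without a Sox4fl/fl array (1590, 1536 and 1612 without replicates 1, 2 and 3). With scaling to a common median 2262 passed, 33.3% of them higher against 45.6%. On gain the count without 1 array was 5468 to 6202 against 7218, and for the difference between experiments 2604 to 3457 against 3456. Same-numbered replicates did not deviate together (correlations between -0.02 and 0.04), and with a replicate block 2387, 6448 and 2936 probes passed on loss, gain and for the difference; Pik3cd on gain was then not called (adjusted p = 0.0542). Slide and scan were not tested, as none is given. Signal over background limits what can be said of Ccr9, Ccr2, Ccr1 and S1pr1, detected on no array, and of Ccr6, detected on single arrays.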
